A study of Rattus norvegicus with 30 samples.

Results

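The apelin system was examined in endothelial-enriched rat lung cells through 3 genes, Apln, Aplnr and Apela, taken by gene name from the 30562 genes of the expression table. Apln and Aplnr passed the filter on low counts and were tested among 16171 genes, and Apela did not pass it. Lung cells carrying CD31, a surface protein of endothelial cells, were captured with microbeads 3 weeks after surgery, and their RNA was sequenced in 30 libraries. All rats were labelled wild-type. Each had either a sham operation or a Glenn operation, a cavopulmonary shunt that routes caval blood directly to the lung. Each kind of surgery was combined with 3 diets, a vitamin A control diet, a vitamin A deficient diet and a vitamin A excess diet, which gave 6 groups of 5 libraries. The age and strain of the rats were not given in the sources used here, and no label says whether the replicates of a group were separate animals, so p-values measure the spread between these libraries.

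Apelin, the product of Apln, and Elabela, the product of Apela, are secreted peptides that share 1 receptor, the G protein-coupled receptor encoded by Aplnr. In the lung capillary bed, Apln is known as a marker of aerocytes, the wide capillary cells apposed to the airspace, and Aplnr of general capillary cells, which act as progenitors of the capillaries. Apln is also a marker of tip cells, the leading cells of vascular sprouts, whose apelin can reach neighbouring cells that carry the receptor. Apela is best known from the embryo, kidney and placenta.

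Total estimated counts were 22 to 77.6 M per library (M stands for mega; median 40 M). Levels are given as CPM, counts per M after scaling by trimmed mean of M-values, and a gene is called changed when its Benjamini-Hochberg adjusted p in the quasi-likelihood test of edgeR was under 0.05. The endothelial genes Pecam1, which encodes CD31, and Cdh5, an endothelial cadherin, were abundant, at means of 1213 ± 233 and 2427 ± 196 CPM over the 15 sham libraries and 1099 ± 146 and 2044 ± 235 CPM over the 15 Glenn libraries (SD). Summed over 7 epithelial markers, the level was 25965 to 45276 CPM in sham and 19289 to 41049 CPM in Glenn libraries, so the sorted cells also held epithelial transcripts. The libraries differed further in 3 ways that the groups do not describe. They fell into 2 series by library number (22 in series A and 8 in series B), into 13 male and 17 female by the Y-linked gene Ddx3y, and into 13 with high and 17 with low RT1-CE16, a histocompatibility gene. Both control-diet groups and the sham excess group held series A only, and the sham excess group had no library with high RT1-CE16.

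Apln, the ligand gene, was higher in every Glenn library than in any sham library. RefSeq places it on chromosome X on the minus strand of the GRCr8 assembly, and the 250 bases before its start (chrX:132091247-132091496) are shown because the gene answered the operation on every diet. The table of promoters held an entry for 2 of the 3 genes, Apln and Apela. Capitals mark 3 matches to short motifs searched on both strands: 2 to the GC box GGGCGG, bound by Sp and KLF family factors, and 1 to CACCC, the core bound by Krüppel-like factors.

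Apln promoter: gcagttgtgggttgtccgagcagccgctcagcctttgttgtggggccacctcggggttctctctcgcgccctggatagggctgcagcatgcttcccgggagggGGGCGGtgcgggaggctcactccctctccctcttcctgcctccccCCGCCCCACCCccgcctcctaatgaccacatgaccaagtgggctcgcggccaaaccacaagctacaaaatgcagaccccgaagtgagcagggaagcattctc

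The second GC box lies on the reverse strand and adjoins CACCC without overlapping it. The GC box occurs in 30.5% and CACCC in 49.2% of the 33469 promoter windows of this length. The window held no match to the hypoxia response core, ACGTG or GCGTG (in 36.7% of windows), to the retinoid half-site AGGTCA (14.1%) or to the palindrome GGCGCC, to which BMP-activated SMAD proteins can bind (8.69%). G and C made up 64.8% of its bases, against a median of 51.2% over all windows. These matches describe the letters of the window only.

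On the control diet, the 5 sham libraries had 120.2, 161, 178, 197 and 227 CPM of Apln (mean 177 ± 40, SD, n = 5). The 5 Glenn libraries on that diet had 592, 489, 342, 583 and 470 CPM (mean 495 ± 101, SD, n = 5). The lowest Glenn library lay above the highest sham library, and the fitted change was 2.8-fold, or 1.49 on the log2 scale (SE 0.19, 95% interval 1.10 to 1.87, edgeR adjusted p 6.1e-07). On the deficient diet, the sham libraries had 124, 167, 218, 187 and 245 CPM (mean 188 ± 46.6, SD, n = 5). The Glenn libraries on the deficient diet had 452, 594, 512, 569 and 332 CPM (mean 492 ± 105, SD, n = 5). These groups did not overlap either, and the log2 change was 1.42 (SE 0.19, 95% interval 1.02 to 1.81, edgeR adjusted p 2.17e-06), or 2.67-fold. On the excess diet, the sham libraries had 231, 149, 190.3, 183 and 187 CPM (mean 188 ± 29.2, SD, n = 5). The Glenn libraries on the excess diet had 494, 409.5, 479, 344 and 470.2 CPM (mean 439 ± 62.4, SD, n = 5). All 5 again lay above all 5 sham libraries, and the log2 change was 1.17 (SE 0.20, 95% interval 0.75 to 1.59, edgeR adjusted p 9.34e-05), or 2.25-fold.

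Averaged over the diets, Apln rose 2.56-fold, from 120.2 to 245 CPM across the 15 sham libraries to 332 to 594 CPM across the 15 Glenn libraries (log2 change 1.36, SE 0.11, 95% interval 1.14 to 1.58, edgeR adjusted p 3.21e-11). Of all genes tested, 3.74% were raised by more in this average, and 2.88%, 4.64% and 6.8% within the 3 diets in that order. Sham and Glenn libraries did not overlap for 5.83% of all genes over the 3 diets together, and for 17.2%, 19.6% and 16.3% within each. In bulk RNA from sorted cells, more cells of a type and more RNA per cell cannot be told apart.

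**Figure D1:**
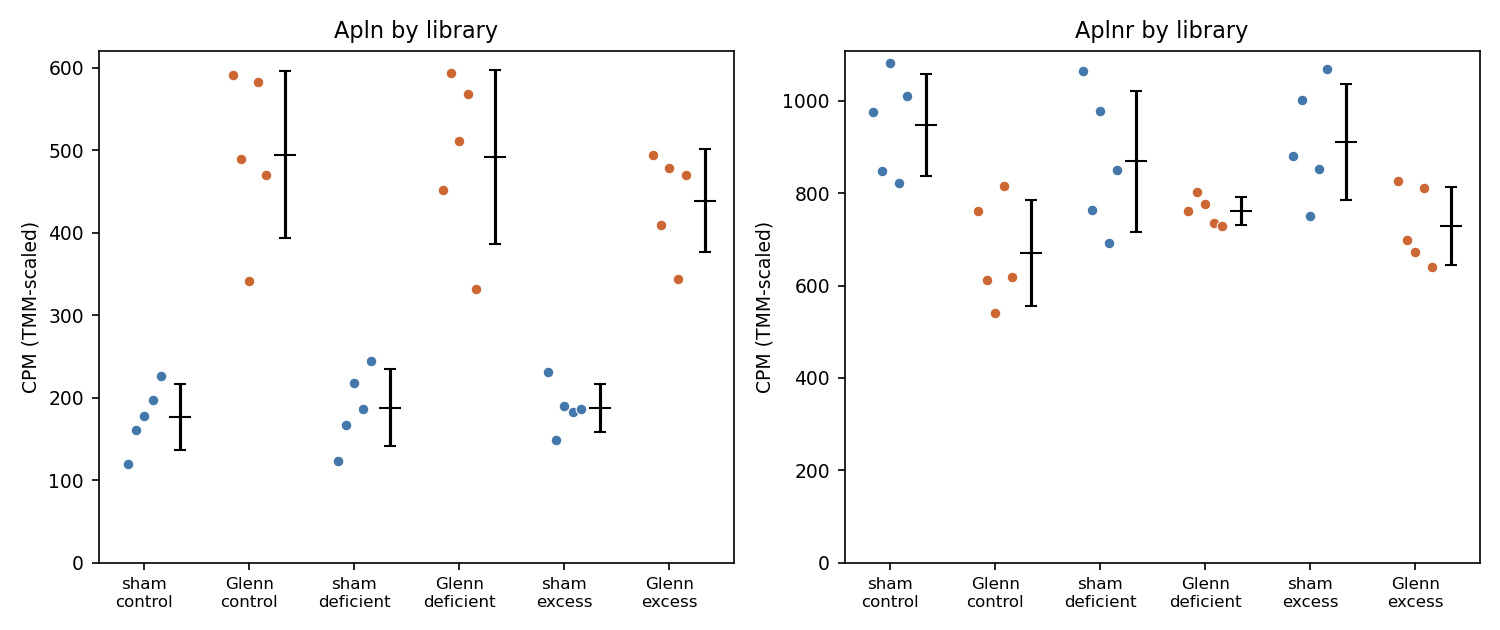
Levels of Apln and Aplnr in CPM (linear axes that start at 0) in each of the 30 libraries by group, sham in blue and Glenn in orange, with the mean ± SD of each group of 5. For Apln all 15 Glenn libraries (332 to 594 CPM) lie above all 15 sham libraries (120.2 to 245 CPM), while the Aplnr groups overlap except on the control diet.

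Aplnr, the receptor gene, moved the other way and by less. On the control diet, its level was 975, 847, 1081, 822 and 1011 CPM in the sham libraries (mean 947 ± 110.1, SD, n = 5). It was 762, 613, 540, 816 and 618 CPM in the Glenn libraries on that diet (mean 669.7 ± 115, SD, n = 5). The highest Glenn library lay just under the lowest sham library, and Aplnr fell by 0.50 on the log2 scale (SE 0.12, 95% interval -0.74 to -0.26, edgeR adjusted p 0.00191), 1.41-fold lower. This call was lost when the libraries were split by RT1-CE16 level, with log2 changes of -0.50 among the low libraries (edgeR adjusted p 0.0695) and -0.43 among the high ones (0.108).

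On the deficient diet, Aplnr was at 1064, 763, 978, 691 and 849 CPM in the sham libraries (mean 869 ± 153, SD, n = 5). The Glenn libraries had 760.3, 803, 777, 736 and 728 CPM (mean 761 ± 30.8, SD, n = 5). These fell inside the sham range, and the log2 difference of -0.21 was not called (SE 0.12, 95% interval -0.46 to 0.03, edgeR adjusted p 0.198). The Glenn deficient group was the tightest of the 6 for Aplnr, with a coefficient of variation of 4.05% against 11.6% to 17.6% in the others. On the excess diet, the sham libraries had 880.2, 1002, 751, 853 and 1069.6 CPM (mean 911 ± 126, SD, n = 5). The Glenn libraries had 826, 699, 672, 812 and 639.6 CPM (mean 729.5 ± 84.4, SD, n = 5). The groups overlapped, and the log2 difference of -0.26 was not called (SE 0.13, 95% interval -0.53 to 0.01, edgeR adjusted p 0.174). It passed the threshold in fits with no term for the series (-0.32, edgeR adjusted p 0.0435) or with a term for sex (-0.30, 0.0459).

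Averaged over the diets, Aplnr fell by 0.32 on the log2 scale (SE 0.07, 95% interval -0.46 to -0.18, edgeR adjusted p 0.000291), 1.25-fold lower, with overlapping ranges of 691 to 1081 CPM after sham and 540 to 816 CPM after Glenn surgery. Both tested genes were therefore called on the control diet, where 24.9% of all genes tested were called. Apln alone was called on the deficient diet, against 27.4% of all genes, and on the excess diet, against 21.9%. Both were called in the average over diets, in which 48.2% of all genes were called, so a call there is common. Whether the Aplnr change differed between diets is given with the diet comparisons.

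Apela, the gene of the second ligand, was close to undetected in these cells. A single count, 0.0252 CPM, stood in sham control replicate 1, and the other 29 libraries had 0. A count of 0 allows a level of up to 0.0387 to 0.13 CPM per library (3 counts, counting error only), so no difference between groups was detectable at this depth.

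Diet alone moved neither gene past the threshold. After sham surgery, the mean Apln level was 177 CPM on the control diet and 188 CPM on both other diets, and after Glenn surgery it was 495 (control), 492 (deficient) and 439 CPM (excess). For Apln after sham surgery, the log2 differences were 0.03 for deficient minus control (95% interval -0.41 to 0.46), 0.09 for excess minus control (-0.28 to 0.47) and 0.06 for excess minus deficient (-0.37 to 0.50). After Glenn surgery they were -0.04 (-0.43 to 0.35), -0.23 (-0.65 to 0.19) and -0.18 (-0.57 to 0.20), in the same order. The group means differed by less than the spread between replicates within either kind of surgery. For Aplnr after sham surgery, the 3 log2 differences were -0.06 (95% interval -0.33 to 0.21), -0.06 (-0.30 to 0.18) and 0.01 (-0.26 to 0.27). After Glenn surgery they were 0.23 (-0.03 to 0.48), 0.19 (-0.08 to 0.46) and -0.04 (-0.28 to 0.20), again in that order. The intervals leave room for diet differences of up to 0.65 for Apln and 0.48 for Aplnr on the log2 scale.

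Of the 2 genes, 0 were called in each of the 6 diet comparisons by edgeR, by DESeq2 or by limma voom, and 0 had an unadjusted edgeR p under 0.05. Few genes were called at all. The percentage of all genes tested that edgeR called after sham surgery was 0% for deficient minus control, 0.241% for excess minus control and 0.0124% for excess minus deficient. After Glenn surgery it was 0.00618%, 1.47% and 0% for the same comparisons. Where edgeR called 0 genes, 844 (deficient minus control after sham) and 837 (excess minus deficient after Glenn) had an unadjusted p under 0.05. DESeq2 called 26 and 18 genes in those comparisons, and limma voom 0 and 2.

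The size of the surgery effect was also compared between diets. For Apln, the log2 change on the deficient diet minus that on the control diet was -0.07 (95% interval -0.61 to 0.47), excess minus control was -0.32 (-0.88 to 0.24), and excess minus deficient was -0.25 (-0.85 to 0.36). For Aplnr, the differences in log2 change were 0.29 (-0.05 to 0.63), 0.24 (-0.12 to 0.60) and -0.04 (-0.42 to 0.33) in the same order. None was called by edgeR (adjusted p 0.87 to 1 for Apln and 0.845 to 1 for Aplnr), by DESeq2 or by limma voom, and 0 of these 6 had an unadjusted p under 0.05. EdgeR called 0%, 0.0186% and 0% of all genes in these 3 comparisons. In the first and last, 687 and 686 genes had an unadjusted p under 0.05, DESeq2 called 0 and 1, and limma voom called 0 in each. The call for Aplnr on the control diet and its absence on the other diets is thus not shown to be a difference between diets.

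**Figure D2:**
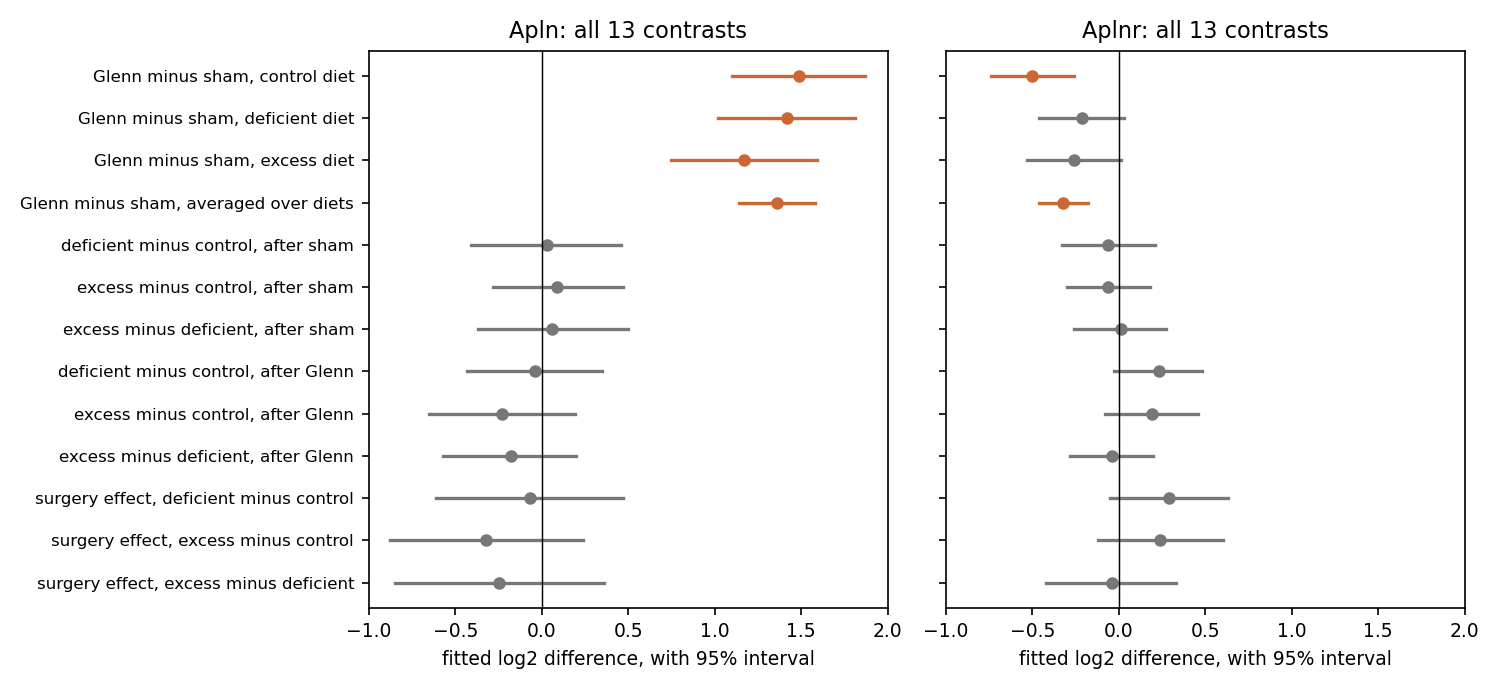
Fitted log2 differences of Apln and Aplnr in the 4 surgery, 6 diet and 3 surgery-by-diet comparisons, with 95% intervals from edgeR, orange where the adjusted p was under 0.05 and grey otherwise. The surgery differences of Apln (1.17 to 1.49) stand clear of 0 on every diet, those of Aplnr run from -0.50 to -0.21, and all diet differences have intervals that include 0.

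Because the share of endothelial RNA can differ between sorted samples, both genes were also set against 8 pan-endothelial genes (Pecam1, Cdh5, Tie1, Erg, Egfl7, Cldn5, Robo4 and Esam). Summed over these 8, the level was 6955 to 8698 CPM in sham and 5281 to 7539 CPM in Glenn libraries; 3 of the 8 were higher and 4 lower after Glenn surgery averaged over diets (median log2 change -0.21). Relative to their geometric mean, Apln was higher in Glenn libraries by 1.62 (control diet), 1.44 (deficient diet) and 1.27 (excess diet) on the log2 scale. The 5 Glenn ratios lay above the 5 sham ratios on each diet (exact two-sided permutation p 0.00794 each, the smallest that 5 against 5 libraries can give, adjusted p 0.0159 over 6 tests). The Aplnr ratio was lower by -0.38 on the control diet (exact permutation p 0.0159, adjusted 0.0238), with overlapping groups. It differed by -0.13 on the deficient diet (exact permutation p 0.333, adjusted 0.333) and by -0.27 on the excess diet (exact permutation p 0.0476, adjusted 0.0571). Both became called when 1 library was left out, sham deficient replicate 4 (-0.225, exact permutation, adjusted p 0.0381) and sham excess replicate 3 (-0.334, adjusted p 0.0381). With Cdh5 alone as the denominator, the Aplnr difference on the control diet was -0.084 (exact permutation, adjusted p 0.467), and with Pecam1 alone -0.216 (0.257), so its call depends on which endothelial genes are used.

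Within a kind of surgery, libraries with more Apln did not have measurably more or less Aplnr. Among the 15 sham libraries, Pearson's r of log2(CPM + 1) was -0.24 (permutation p 0.381, adjusted 0.508 over 4 tests) and Spearman's rho -0.15 (permutation p 0.593, adjusted 0.593). Among the 15 Glenn libraries, r was 0.37 (permutation p 0.182, adjusted 0.364) and rho 0.46 (permutation p 0.0843, adjusted 0.337). Without the 2 libraries farthest from the median of Apln, r was 0.04 in the sham and 0.16 in the Glenn libraries. No r of Apln with Aplnr is given over all 30 libraries, since sham and Glenn libraries form separate clusters of Apln.

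The genes that process and break down apelin were mixed after Glenn surgery. The list counts here and in the paragraphs that follow are for the average over diets, in which 23.4% of all genes tested were called higher and 24.7% lower. In that average, 2 of the 4 tested rose and 2 fell (median log2 change -0.06, against -0.01 over all genes). Furin, a protease that cleaves propeptides, rose by 0.21 on the log2 scale (SE 0.03, edgeR adjusted p 6.66e-06), and Prcp, a carboxypeptidase, by 0.41 (SE 0.09, edgeR adjusted p 0.000435). Mme, the peptidase neprilysin that cleaves apelin, fell from 109 ± 23.7 to 62.8 ± 15.7 CPM (mean ± SD over 15 libraries each), and the log2 change was -0.76 with an SE of 0.13 (edgeR adjusted p 1.46e-05). The fifth gene, Klkb1, did not pass the filter.

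Of 9 genes for the G proteins, arrestins and kinase that couple to the receptor, 1 rose and 7 fell (median log2 change -0.22), against 23.4% higher and 24.7% lower among all genes. Gna11, a Gq-class subunit, fell by 0.46 (SE 0.04, edgeR adjusted p 7.57e-10) and Gnai1, an inhibitory subunit, by 0.68 on the log2 scale (SE 0.08, edgeR adjusted p 1.64e-08). Gnai2, another inhibitory subunit, rose by 0.13 (SE 0.05, edgeR adjusted p 0.0341), and leaving out any of 9 single libraries ended this call. Those were sham control 4 and 5, Glenn control 1, Glenn deficient 2, sham excess 2, 3 and 4, and Glenn excess 1 and 2, and the log2 change without each stayed above 0. In series A alone, or among the RT1-CE16-low libraries alone, 3 of the 9 were called lower. Of 5 receptors related to Aplnr or reported to pair with it, only Agtr1a, an angiotensin receptor, passed the filter, with means of 6.84 ± 1.63 CPM in sham and 9.24 ± 2.61 CPM in Glenn libraries (SD, n = 15). Its log2 change was 0.45 (SE 0.13, edgeR adjusted p 0.00565), and the call was lost among the RT1-CE16-low libraries (edgeR adjusted p 0.0614).

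Of 16 genes reported downstream of the receptor, 3 rose and 6 fell (median log2 change -0.09), so the 9 called of 16 are near the 48.2% of all genes called. Klf2, a flow-responsive transcription factor of endothelial cells, fell from 1474 ± 283 to 656 ± 103 CPM with no overlap between the 15 sham and 15 Glenn libraries (SD; log2 change -1.16, SE 0.08, edgeR adjusted p 3.88e-13). Klf4, its relative, fell by 0.72 on the log2 scale (SE 0.08, edgeR adjusted p 1.13e-08). Nos3, the endothelial nitric oxide synthase, rose from 81.9 ± 10.1 to 154 ± 35.2 CPM (mean ± SD over 15 libraries each) with no overlap, and the log2 change was 0.91 with an SE of 0.09 (edgeR adjusted p 1.07e-09). Fgfr1, a fibroblast growth factor receptor, rose by 0.45 on the log2 scale (SE 0.04, edgeR adjusted p 1.22e-10). Among all genes, 5.83% had no overlap, and the genes named here were picked by their small adjusted p.

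Of 14 genes reported to act upstream of Apln or Aplnr, 5 rose and 7 fell (median log2 change -0.16). Hif1a, a hypoxia-inducible factor, rose by 0.58 (SE 0.05, edgeR adjusted p 1.76e-11) and Ctnnb1, which encodes beta-catenin, by 0.39 on the log2 scale (SE 0.04, edgeR adjusted p 1.94e-10). Vegfa, the main endothelial growth factor, fell from 1316 ± 196 to 388 ± 56.1 CPM (mean ± SD over 15 libraries each), and the log2 change was -1.77 with an SE of 0.06 (edgeR adjusted p 7.15e-19). Bmpr2, a receptor for bone morphogenetic proteins whose loss causes heritable pulmonary hypertension, fell from 642 ± 63.6 to 259 ± 33.3 CPM (mean ± SD over 15 libraries each), and the log2 change was -1.30 with an SE of 0.06 (edgeR adjusted p 7.92e-17). Sham and Glenn libraries did not overlap for any of these 4 genes, against 5.83% of all genes tested. The 4 are named for the smallest adjusted p in their direction, a choice that favours genes without overlap. The list held further genes without overlap. Epas1, also a hypoxia-inducible factor, fell while Hif1a rose, with means of 5411 CPM in sham and 2765 CPM in Glenn libraries (SD 506 and 442, log2 change -0.95). Acvrl1 fell as well, with means of 1713 and 644 CPM (SD 122 and 147, log2 change -1.39). Kdr and Tek, by contrast, did overlap.

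The 2 cell types that Apln marks gave different pictures. Of 11 other tip cell markers, 10 rose and 0 fell (median log2 change 1.61), against 23.4% higher and 24.7% lower among all genes. Adm, which encodes adrenomedullin, rose from 10.2 ± 2.08 to 90.9 ± 22.6 CPM (mean ± SD over 15 libraries each), and the log2 change was 3.13 with an SE of 0.12 (edgeR adjusted p 5.9e-18). Angpt2, an angiopoietin released by sprouting endothelium, rose by 2.38 (SE 0.09, edgeR adjusted p 3.76e-18). Their summed level was 698 to 1006 CPM in sham and 1516 to 2124 CPM in Glenn libraries. Of 7 other aerocyte markers, in contrast, 2 rose and 3 fell (median log2 change 0.02), set against the same shares, and their summed level was 1215 to 1882 CPM in sham and 736 to 993 CPM in Glenn libraries. Car4, the carbonic anhydrase that defines aerocytes, fell from 409 ± 71.6 to 110.2 ± 24.3 CPM (mean ± SD over 15 libraries each), and the log2 change was -1.92 with an SE of 0.10 (edgeR adjusted p 1.32e-15), while Apln rose in the same libraries. Tbx2, a transcription factor, fell by 1.65 on the log2 scale (SE 0.11, edgeR adjusted p 5.77e-13). Chst1, a sulfotransferase, rose by 1.07 (SE 0.12, edgeR adjusted p 4e-08), and Emcn, the sialoglycoprotein endomucin, by 0.21 (SE 0.08, edgeR adjusted p 0.0218). The Emcn call was lost without Glenn deficient replicate 2 (log2 change 0.177) and with no term for the series (0.181).

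Of 6 general capillary markers other than Aplnr, 0 rose and 5 fell (median log2 change -0.48), the direction of Aplnr. Among the RT1-CE16-low libraries alone, 3 of the 6 were called lower. Glp1r, the receptor of glucagon-like peptide 1, fell from 390.1 ± 78.1 to 40.7 ± 13.6 CPM (mean ± SD over 15 libraries each), and the log2 change was -3.26 with an SE of 0.15 (edgeR adjusted p 8.59e-16). Plvap, a protein of endothelial diaphragms, fell by 1.69 on the log2 scale (SE 0.09, edgeR adjusted p 4.76e-15). Gpihbp1, which anchors lipoprotein lipase to capillaries, was at 127 ± 24.6 and 138 ± 42.5 CPM and was not called (SD, n = 15 each; edgeR adjusted p 0.502). The log2 changes of the 5 genes ran from -3.26 to -0.20, and that of Aplnr (-0.32) lay between those of Cd93 (-0.20) and Tek (-0.40). Tek is listed both here and among the upstream genes, and Dll4 both there and among the tip cell markers.

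**Figure D3:**
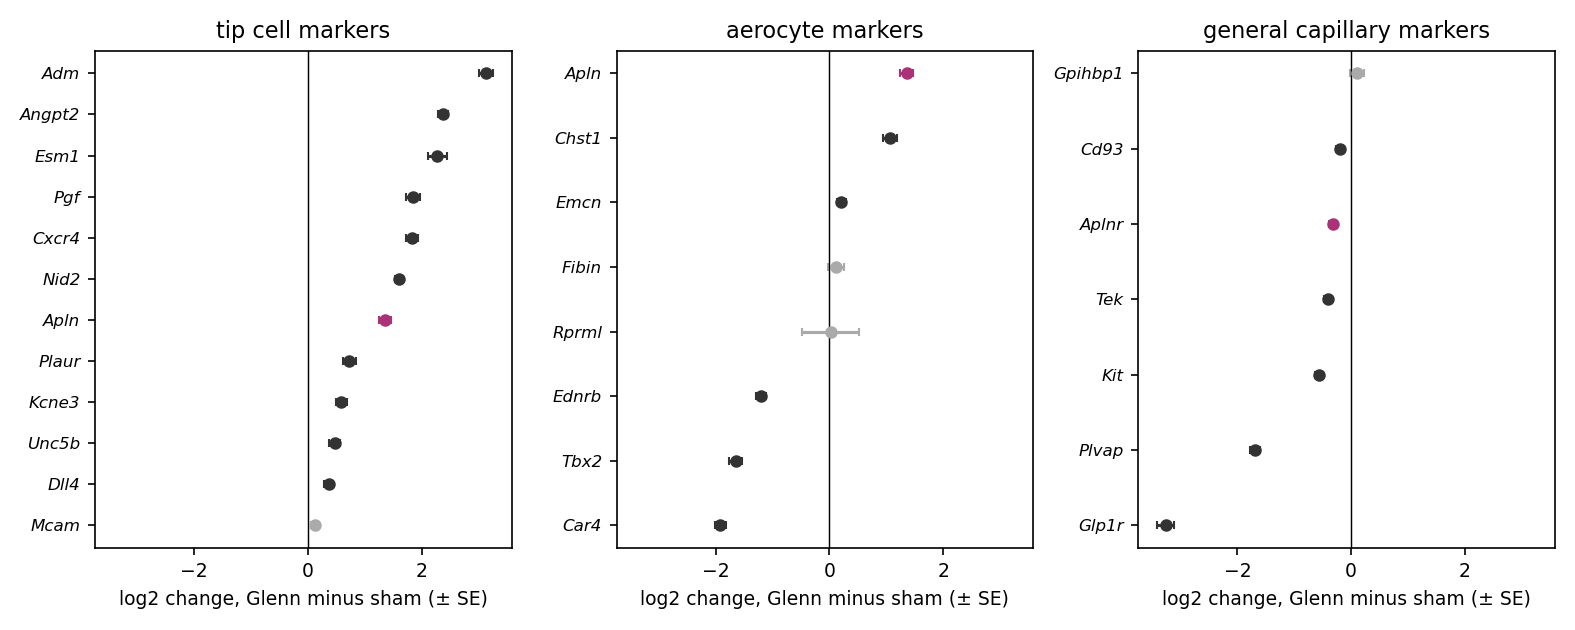
Log2 change after Glenn surgery, averaged over diets, for Apln with the other aerocyte and tip cell markers and for Aplnr with the other general capillary markers (points, with SE), purple for Apln and Aplnr, dark for other called genes and light grey for genes not called. Apln (1.36) sits among the raised tip cell markers and opposite Car4 (-1.92), and Aplnr (-0.32) is on the side of Glp1r (-3.26) and Plvap (-1.69).

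Markers of other cell types moved with surgery too. All 7 mural markers (smooth muscle and pericytes) rose, from a summed level of 151 to 297 CPM in sham to 425 to 1498 CPM in Glenn libraries. All 6 lymphatic markers rose (1090 to 2004 CPM against 2468 to 5101 CPM), as did all 6 fibroblast markers (321 to 807 CPM against 592 to 1230 CPM). Of 7 arterial markers 5 rose and 2 fell (877 to 1245 against 837 to 1603 CPM), and of 6 venous markers 2 rose and 4 fell (1715 to 2862 against 969 to 2335 CPM). Of 7 epithelial markers 2 rose and 3 fell, and of 4 mesothelial markers edgeR called 0 (142 to 577 CPM over all libraries). Leukocyte markers summed to 13.9 to 64.4 CPM over all libraries, with 1 of the 4 tested higher and 1 lower. The erythroid gene Alas2 was called higher at no more than 5.16 CPM. The part of these cells in the Apln and Aplnr results was not tested.

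Pearson's r of log2(CPM + 1) was taken with the 12720 other tested genes whose mean level reached 1 CPM, leaving out placeholder and blank symbols. Across the 30 libraries, the 3 of these genes most like Apln were Ablim3 (r = 0.96), Ralgdsl1 (0.95) and Nsg1 (0.95). These r describe mainly the gap between sham and Glenn libraries, which all 3 share, with log2 changes of 1.92, 0.51 and 2.07. When each library was taken as its deviation from its group mean, the 3 nearest were Ralgdsl1 (r = 0.74), Schip1 (0.70) and Ablim3 (0.69), and Schip1 fell after Glenn surgery (log2 change -0.62, SE 0.06, edgeR adjusted p 2.55e-09). For Aplnr, the nearest genes across libraries were Ets1 (r = 0.85), Ifnar1 (0.84) and Skap2 (0.84). By deviations they were Myct1 (0.78), Colgalt2 (0.77) and Robo4 (0.75), of which Robo4, an endothelial guidance receptor, rose after Glenn surgery (log2 change 0.89, SE 0.06, edgeR adjusted p 1.2e-12) while Aplnr fell.

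The 2 measures of likeness gave opposite signs for some aerocyte markers. Car4 had an r of -0.86 with Apln across the 30 libraries and 0.29 by deviations, Ednrb -0.75 and 0.42, and Tbx2 -0.81 and 0.35. By deviations, 6 of the 7 aerocyte markers had a positive r with Apln (median 0.18), against 52.5% of all genes compared. Several other lists had like shares, with 7 of 8 pan-endothelial genes (median 0.20), 9 of 9 receptor coupling genes (median 0.20), 11 of 14 upstream genes (median 0.06) and 8 of 11 tip cell markers. A positive r was therefore not particular to aerocyte markers. The share was 11 of 16 among downstream genes (median 0.14). It was lower among general capillary markers, at 2 of 6 (median -0.06), and processing genes, at 2 of 4 (median -0.09). The 11 tip cell markers had a median r with Apln of 0.89 across libraries and 0.08 by deviations. Glp1r had a negative r with Apln by both measures (-0.95 and -0.61). For Aplnr, all 6 general capillary markers had a positive r across libraries (median 0.64) and 5 of 6 by deviations (median 0.16), against 52.4% of all genes compared by deviations. They varied, from Kit (0.82 and 0.60) and Cd93 (0.64 and 0.60) to Tek (0.54 and 0.13), Gpihbp1 (0.05 and 0.03) and Glp1r (0.65 and -0.04). Of the 8 pan-endothelial genes, 5 had a positive r with Aplnr across libraries and 6 by deviations (median 0.38), with Cdh5 at 0.78 and 0.57, Pecam1 at 0.21 and -0.03 and Cldn5 at 0.48 and -0.17. Ednrb, Kit, Cd93, Tek and Cldn5 were singled out here after their values were seen. The libraries share depth, sort purity and handling within a sample, and these r are a description over 30 points.

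**Figure D4:**
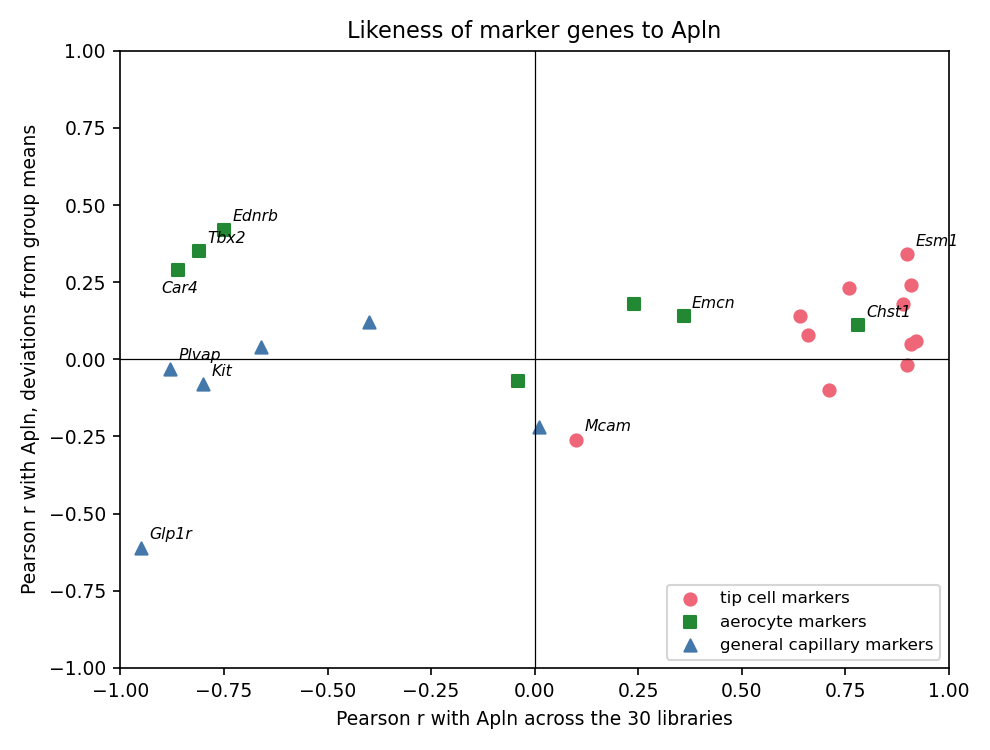
Pearson's r of marker genes with Apln across the 30 libraries (horizontal) against r of deviations from the 6 group means (vertical), both of log2(CPM + 1). Car4, Ednrb and Tbx2 lie at a negative r across libraries (-0.86 to -0.75) and a positive r by deviations (0.29 to 0.42), and the tip cell markers lie at a positive r across libraries with r by deviations of -0.26 (Mcam) to 0.34 (Esm1).

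The library series and the RT1-CE16 level were next compared. Series B minus series A was 0.09 for Apln (95% interval -0.23 to 0.41) and -0.11 for Aplnr (-0.31 to 0.09), and low minus high RT1-CE16 was -0.19 (-0.43 to 0.05) and 0.01 (-0.14 to 0.17). None of these differences was called (edgeR adjusted p 0.36 for Apln by RT1-CE16 level, and 0.695 to 0.948 for the rest). Within the sham groups that held both levels, Apln was lower in the RT1-CE16-low libraries with no overlap, at 120.2 to 161 against 178 to 227 CPM in sham control (2 low, 3 high) and 124 to 167 against 187 to 245 CPM in sham deficient (2 low, 3 high). The levels overlapped in all 3 Glenn groups, at 342 to 592 CPM (low) against 470 to 583 CPM (high) in Glenn control, for example. Whether the RT1-CE16 difference in Apln depends on surgery was not tested. In sham deficient, Glenn deficient and Glenn excess, the low libraries were those of series A and the high ones those of series B. RT1-CE16 level and series cannot be told apart there. The share of all genes that such small splits separate was not taken, so the separation in the sham groups is not shown to be particular to Apln. Sex, read from Ddx3y, was then added to the fit. Male minus female was 0.03 for Apln (-0.20 to 0.25), with an estimate of -0.10 in the sham and 0.18 in the Glenn libraries. For Aplnr it was 0.22 (SE 0.06, 95% interval 0.11 to 0.34), which did not pass edgeR's threshold over all genes (adjusted p 0.199) but ranked 37 of 16171 genes by p, and 13 genes (0.0804%) passed. DESeq2 gave 0.22 with an adjusted p of 0.0323, the only 1 of 36 alternative fits that called the difference. In the other 35 it was not called, and the estimates of all ran from 0.183 to 0.256. The mean Aplnr level was higher in males in 5 of the 6 groups: 1028 against 893 CPM in sham control, 1021 against 768 CPM in sham deficient and 975 against 869 CPM in sham excess. It was 789 against 590.1 CPM in Glenn control and 759 against 685 CPM in Glenn excess, but 748 against 769 CPM in Glenn deficient. Each group held 2 or 3 libraries of each sex, and this comparison was added after the data were seen.

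**Figure D5:**
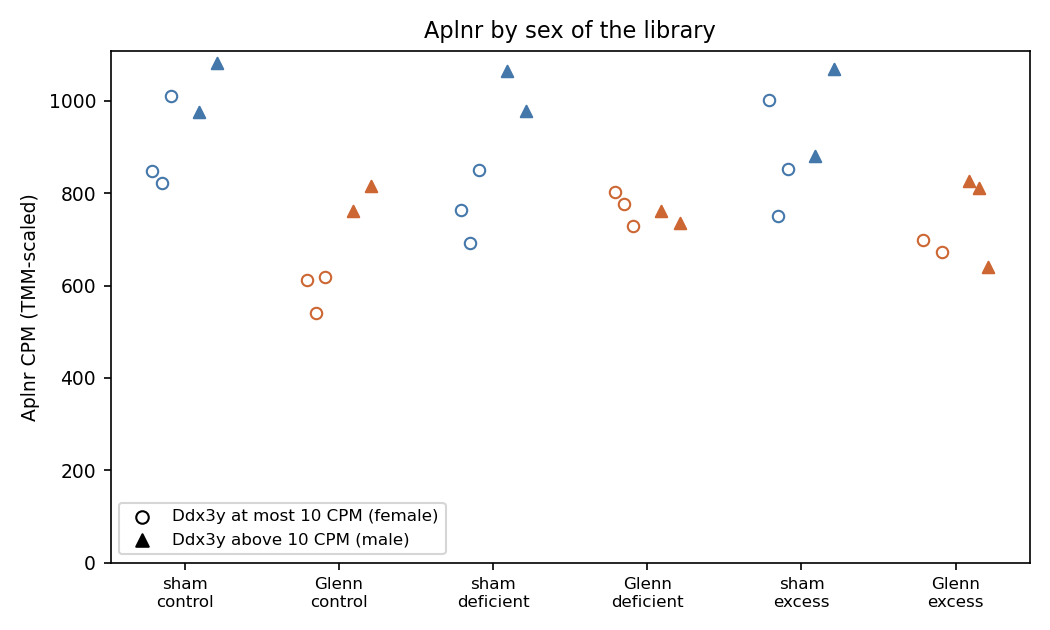
Aplnr level in CPM by group (linear axis), blue for sham and orange for Glenn, open circles for female and filled triangles for male libraries by Ddx3y. In Glenn control both male libraries (762 and 816 CPM) lie above the female ones (540 to 618 CPM), while the sexes overlap in Glenn deficient and 1 male library is the lowest of Glenn excess (639.6 CPM).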

How the data were processed

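RNA of CD31-positive rat lung cells was taken with a PureLink kit and made into libraries with SMART-Seq v4, per the labels. The authors deposited 1 table of estimated counts, with a row per gene. The submitters' processing notes name FastQC, Trim Galore, Picard, STAR and Salmon and the build mRatBN7.2 (rn7). Versions, annotation release and strandedness are not given in the sources used here. All 30 sample columns were used and 0 left out, and 13.6% of values were not whole and were rounded. In edgeR 4.0.16, filterByExpr left out genes with low counts (count under 10, total under 15), and the rest were scaled by TMM and tested with glmQLFit (robust) and glmQLFTest in 1 fit of 6 groups with the library series as a term, with Benjamini-Hochberg adjustment over 16171 genes in each comparison. R 4.3.3 was used, with limma 3.58.1 and DESeq2 1.42.0 as alternatives.

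Male libraries were called above 10 CPM of Ddx3y, and RT1-CE16-high ones above 100 CPM. Promoter sequences came from RefSeq (GRCr8). Libraries within groups differed beyond sampling noise (chi-square per degree of freedom 20.5 to 122.3), so none was counted as a duplicate. Same-numbered libraries of different groups had a mean correlation of deviations of 0.10 (-0.25 to 0.29 over 75 pairs, 38 above 0.1) and differently numbered ones of -0.02 (52 of 300 above 0.1). Not every same-numbered pair passed 0.1, so the numbers were not treated as pairing the libraries. From each of the first 8 lists (processing, coupling, downstream, upstream, related receptors, aerocyte, general capillary, tip cell), up to 2 raised and 2 lowered genes with the smallest adjusted p in the average over diets and a mean of at least 1 CPM are named, with Pecam1, Cdh5, Car4 and Gpihbp1, and the 3 genes most like Apln or Aplnr by either measure. Values of 1 gene of the processing list are not reported here. The members and lists were chosen with earlier results of these data known.

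In data simulated from these libraries (16171 genes, 200 changed), the average over diets recovered 84 of 99 changes of 1 on the log2 scale and 64 of 97 changes of 0.5, with 3 false calls, and the control-diet comparison 71 of 99 and 40 of 97, with 5 false calls. No diet or series differences were simulated. In the data 48.2% of genes were called in that average, so the adjusted threshold was stricter in the simulation. These recovery rates do not carry over to the data.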

Additional observations from a re-analysis of the deposited data

Results flagged for a closer look

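Of 30 tests within a group of 5 libraries, of a gene's level or its log2 ratio to the pan-endothelial genes, 1 found a library far from the others. Chance gives this for about 1 in 20 groups of continuous values, a rate that does not hold for the counts of Apela. In the sham control group, Apela had 1 count in replicate 1 (0.0252 CPM) and 0 in the other 4 libraries, so the gap of that library to the next took a share of 1.0 of the group's range. The level rests on that single count. Any single count beside libraries at 0 gives this share, and the other Apela groups had no range, so the rule could decide nothing for Apela.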

How the results depend on the processing

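Leaving out each library, other scalings, filters, terms, tools and subsets of libraries kept Apln higher and called in all 173 values of its 4 surgery comparisons (largest adjusted p 0.00464). For Aplnr, 168 of 173 kept their call. On the control diet it was no longer called with only the libraries low (-0.503) or only those high in RT1-CE16 (-0.43). On the excess diet it became called with no series term (-0.321), with a sex term (-0.296) and with RT1-CE16 and sex terms (-0.353). Fewer libraries entered the first pair of fits. For the rest the cause was not tested. The replicate numbers were not treated as pairing the libraries, although 17 of 30 libraries correlated best with their own number, a hint from the data and not from the design. Every replicate 1 was male and every replicate 2 female, and all of these were of series A and low in RT1-CE16. Such shared traits and a pairing cannot be told apart by this correlation. With the replicate block, the Apln and Aplnr changes averaged over diets were 1.374 and -0.325, no call of either changed, and the call of Gnai2 was lost (0.114). The block moved the genes called for excess minus control from 39 to 111 after sham and from 237 to 34 after Glenn surgery, and for excess minus deficient after sham from 2 to 4.

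Diet differences of the 2 genes were never called, and several changed sign. For Apln, deficient minus control after sham was -0.276 in series A alone and with only the 2 groups, and -0.013 with limma voom, which also gave -0.031 for excess minus control and -0.018 for excess minus deficient. After Glenn surgery, deficient minus control was 0.066 in series A, 0.002 with an RT1-CE16 term, 0.003 with that and sex, 0.126 among RT1-CE16-low libraries and 0.052 with only the 2 groups. The surgery effect on the deficient minus the control diet was 0.342 in series A and 0.073 among RT1-CE16-low libraries. For Aplnr after sham, deficient minus control was 0.007 among RT1-CE16-low libraries. Excess minus deficient was -0.011 in series A and among RT1-CE16-low libraries, -0.001 with DESeq2 or its size factors and -0.013 with only the 2 groups. Excess minus control after Glenn was -0.014 among RT1-CE16-high libraries.

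With single libraries left out, Apln after sham ran from -0.084 to 0.227 for deficient minus control, from -0.019 to 0.199 for excess minus control and from -0.136 to 0.147 for excess minus deficient. After Glenn, deficient minus control ran from -0.152 to 0.049, and its difference in surgery effect from -0.228 to 0.104. Aplnr after sham ran from -0.173 to 0.033, from -0.12 to 0.006 and from -0.089 to 0.117 in the order above, and its surgery effect on the excess minus the deficient diet from -0.169 to 0.059. Male minus female for Apln ran from -0.018 to 0.091 and was -0.096 among sham libraries alone. For Aplnr it ran from 0.2 to 0.244, and of all its fits only DESeq2 called it.

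Relative to Cdh5 alone, the Aplnr ratio differed by -0.084 on the control and 0.018 on the deficient diet. Relative to Pecam1 alone it differed by -0.216, 0.063 and, on the excess diet, -0.453, which was called. Without single libraries it ran from -0.225 to -0.049 on the deficient and from -0.334 to -0.212 on the excess diet. Pecam1 itself turned to 0.014 in series A and 0.094 among RT1-CE16-low libraries. Over all alternatives, the genes called after Glenn surgery numbered 1563 to 4417 on the control, 2336 to 4792 on the deficient and 1960 to 4370 on the excess diet. For excess minus control they numbered 0 to 210 after sham and 2 to 557 after Glenn surgery. The other diet comparisons called at most 63 genes. Terms for RT1-CE16 with sex, the list counts under each fit, the male minus female fits and the deviations for the correlation were chosen after seeing the data. RT1-CE16-high libraries alone gave no excess-diet surgery value, since no sham excess library was high. Depth limits what can be said of Apela, and the number of libraries limits the diet differences.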
